A study of Drosophila melanogaster with 3 samples.

Results

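The genes of the proteasome were examined in a map of where CG8089, a protein assayed as a transcription factor, was found on chromatin of fly embryos. Members were all protein-coding genes of the fly annotation whose symbols start with Rpn, Rpt, Prosalpha or Prosbeta, which gave 48 of 13945 genes on 6 chromosome arms. Of these, 32 encode the standard subunits, with 7 alpha and 7 beta subunits of the core particle, 6 ATPases and 12 other subunits of the regulatory particle. The other 16 are paralogs, duplicate genes whose symbols carry an R or a T after the number. RefSeq descriptions named all 48 as parts of the proteasome or of its regulatory particle, with 4 of the paralogs described as specific to the testis and 12 as related to a subunit. The data came from chromatin immunoprecipitation sequencing (ChIP-seq) of whole Drosophila melanogaster embryos aged 0 to 24 hours, males and females together. All embryos were of 1 transgenic line in which GFP (green fluorescent protein) is fused to the C-terminal end of CG8089, and the fusion was precipitated with an antibody to GFP. There were 3 biological replicates, numbered 2, 3 and 4, and no second group, so no comparison between conditions exists. Signal from all tissues and ages of the embryo is averaged in such material. Control libraries were left out.

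The 26S proteasome degrades proteins that carry ubiquitin. Its 20S core is a barrel of stacked rings, with alpha subunits outside that gate the entrance and beta subunits inside, of which beta1, beta2 and beta5 cut the substrate. The 19S regulatory particle caps the barrel: a ring of Rpt ATPases unfolds the substrate and opens the gate, Rpn1, Rpn10 and Rpn13 receive ubiquitin, and Rpn11 cuts the ubiquitin chain off. Subunits are needed in fixed proportions and most cells use them. Flies also have duplicate subunit genes, many of them known to be expressed in the testis.

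The genome sequence around 3 summits is shown because these are among the 5 strongest pooled sites of proteasome genes, the others being Prosbeta1 and Rpn9. A summit is the base of highest signal in a peak. Each stretch is 201 bases of the RefSeq Release 6 genome (build dm6), 5′ to 3′ on the strand of the proteasome gene, with the summit at base 101. Rpn3 is at chr2L:19051727-19051927 on the plus strand, Rpn5 at chr3R:5789198-5789398 on the plus strand and Rpt5 at chr3R:23752758-23752958 on the plus strand. Capitals mark the words searched for, on either strand: TATCGATA, the word known in flies as the DNA replication-related element, with CGATA or its complement TATCG inside it or alone, ACACTG (complement CAGTGT) and TATAAA.
Rpn3: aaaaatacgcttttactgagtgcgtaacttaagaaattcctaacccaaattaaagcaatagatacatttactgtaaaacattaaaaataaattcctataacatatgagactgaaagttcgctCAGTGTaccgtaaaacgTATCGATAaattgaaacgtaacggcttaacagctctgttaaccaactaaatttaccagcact
Rpn5: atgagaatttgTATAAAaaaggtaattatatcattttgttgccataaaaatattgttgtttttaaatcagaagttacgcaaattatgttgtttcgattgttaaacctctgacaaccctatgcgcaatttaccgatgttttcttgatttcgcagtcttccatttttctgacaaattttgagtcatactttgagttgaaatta
Rpt5: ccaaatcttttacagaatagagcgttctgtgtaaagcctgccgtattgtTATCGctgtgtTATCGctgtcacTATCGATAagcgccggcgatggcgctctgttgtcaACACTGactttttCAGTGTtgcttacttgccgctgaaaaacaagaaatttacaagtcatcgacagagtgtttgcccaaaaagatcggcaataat
The transcription start site (TSS) falls at base 64 in the Rpn3 stretch and at base 119 in that of Rpt5. It lies outside the stretch in Rpn5. Rpt5 holds TATCGATA at bases 73 to 80, and 2 further copies of TATCG at bases 50 to 54 and 61 to 65. Rpn3 holds TATCGATA at bases 140 to 147, downstream of its TSS. Rpn5 holds none of the CGATA words.

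Within 500 bp of a TSS, 4 of 48 members (8.33%) had a summit in the authors' list of reproducible peaks, against 14.6% of all protein-coding genes. In the pooled list, made by the authors from all replicates together, 25 of 48 (52.1%) had one, against 51.7% of all protein-coding genes. The reproducible list holds 3233 peaks and the pooled list 30000, and all 3233 are the pooled entries of highest signal. Per the deposited file descriptions, the lists of 30000 hold background as well as peaks, so a low-ranked entry need not be a binding site. A reproducible summit is therefore a strong pooled summit, and the remaining 21 members differ from the 4 by the strength of the peak. Of the 30000 pooled entries, 5959 had a q-value of at most 0.05, and with only these 7 members kept a summit (14.6%), against 23.3% of all protein-coding genes. Besides the 4 reproducible ones these 7 were Rpt5, Rpn6 and Rpn2.

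The members divided by gene class. All 25 with a pooled summit were standard subunits, 78.1% of the 32. None of the 16 paralogs had a pooled or reproducible promoter summit. The 4 reproducible members were thus 12.5% of the standard subunits, near the 14.6% of all protein-coding genes. Within q of 0.05, 7 of 32 standard subunits (21.9%) had a pooled promoter summit, near the 23.3% of all protein-coding genes. The excess of standard subunits in the whole pooled list thus lay among entries that did not reach that q-value. It was not confined to the end of the list. In the stronger 15000 pooled entries 21 of the 32 standard subunits had a promoter summit, against 39% of all protein-coding genes.

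By role, the reproducible list held 3 of the 12 non-ATPase subunits of the regulatory particle, 1 of the 7 beta subunits, and none of the 7 alpha subunits or 6 ATPases. The pooled list held 11 of 12 non-ATPase subunits, all 6 ATPases, 6 of 7 alpha subunits and 2 of 7 beta subunits. Within 500 bp the beta ring thus had the fewest pooled summits, although it includes Prosbeta1. This depended on the window. The nearest pooled summits of Prosbeta3, Prosbeta7, Prosbeta4 and Prosbeta2 were 505, 669, 696 and 837 bp from the TSS. All of these counted with a window of 1000 bp, and only Prosbeta6, at 1114 bp, did not. The groups by role are small and the differences between them were not tested.

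Single replicates gave the same picture for strong peaks. Among its own 3233 strongest peaks, replicate 2 placed a promoter summit at 5 members, replicate 3 at 4 and replicate 4 at 3, against 14.9%, 13.7% and 14.0% of all protein-coding genes. The mean share was 8.33% ± 2.08 of members and 14.2% ± 0.618 of all protein-coding genes (SD, n = 3 each). The 16 paralogs had none of these summits in any replicate. Of the 32 standard subunits alone 15.6%, 12.5% and 9.38% had one in replicates 2, 3 and 4, a mean of 12.5% ± 3.12, which differed from that of all genes by less than the spread between replicates and in replicate 2 was above it. Over the whole lists of 30000 entries the member counts were 17, 29 and 26, against 41.3%, 54.3% and 48.6% of all protein-coding genes in replicates 2, 3 and 4. The mean was 50% ± 13.0 of members and 48.1% ± 6.48 of all protein-coding genes, so the means differed by less than the spread between replicates.

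Over the whole lists, replicate 3 held the most members and replicate 2 the fewest, whereas among the 3233 strongest peaks replicate 2 held the most. In replicate 3 all 7 beta subunits, all 6 ATPases and 28 of the 32 standard subunits had an entry, against 15 in replicate 2 and 24 in replicate 4. Replicate 3 also had 11336 entries with a q-value of at most 0.05, against 3087 in replicate 2 and 5805 in replicate 4. Within that limit 21 of the 32 standard subunits (65.6%) had a promoter summit in replicate 3, against 35.9% of all protein-coding genes. In replicate 2 there were 5 (15.6%, against 14.5%) and in replicate 4 there were 6 (18.8%, against 21.1%). Within that limit only replicate 3 had a share far above that of all genes. Over the whole lists the share of standard subunits was 46.9% in replicate 2, 87.5% in replicate 3 and 75% in replicate 4. The shares of all protein-coding genes there were 41.3%, 54.3% and 48.6%, so replicate 4 was also well above them. The part of read depth in the difference between replicates was not tested, and no source used here gives read numbers.

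**Figure D1:**
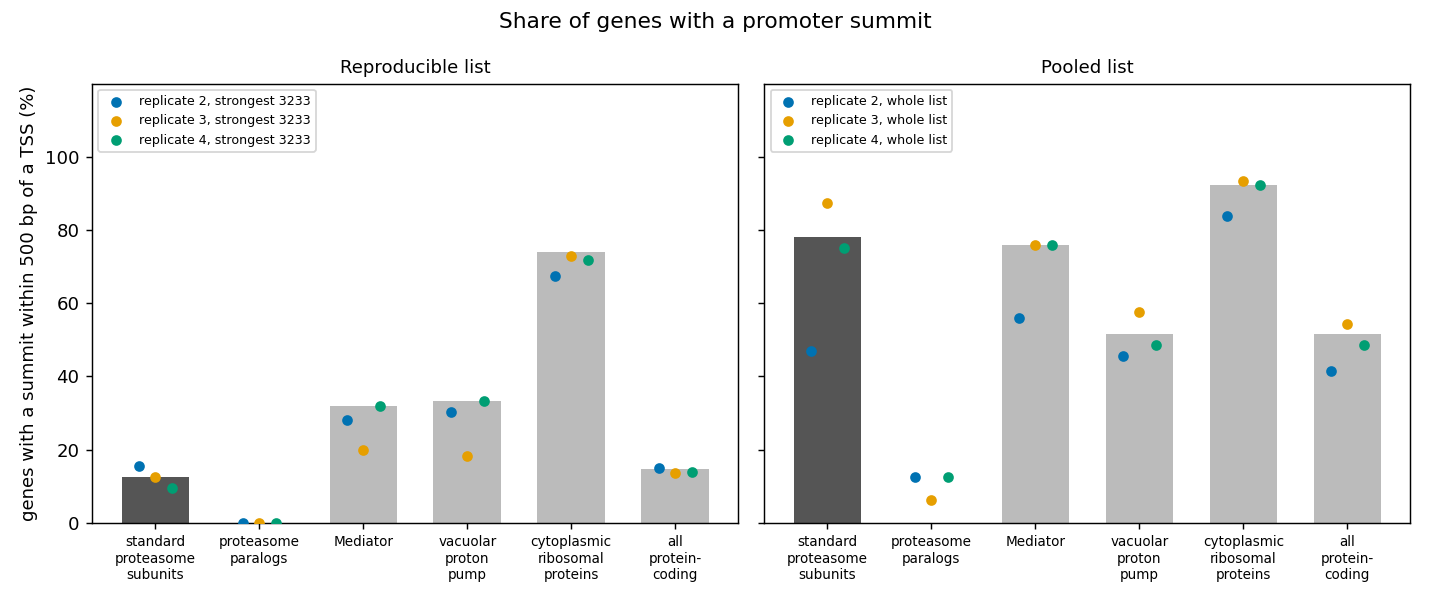
Percentage of genes with a summit within 500 bp of a TSS (vertical axis) for standard proteasome subunits, proteasome paralogs, 3 other gene groups and all protein-coding genes. Bars give the reproducible list (left) or the pooled list (right), and dots give each replicate's 3233 strongest peaks (left) or its whole list (right). Standard subunits reach 12.5% on the left and 78.1% on the right, and paralogs have no bar on either side.

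Rpn5, a structural subunit of the lid that forms the outer part of the regulatory particle, had the strongest promoter summit. Its peak (dm6 3R, 5789100 to 5789495) had pooled rank 422 and a signal of 359, in the authors' units. No source used here gives the scale of that signal, so it ranks peaks within a list only. Replicate 2 ranked its own strongest summit there 285 with a signal of 148, replicate 3 ranked it 1121 with 84.9, and replicate 4 ranked it 267 with 131. Replicate 3 thus ranked it lower than the other replicates. The summit lay at 5789298, 195 bp upstream of the Rpn5 TSS and within an intron of Hat1, a gene for a histone acetyltransferase on the opposite strand. The Hat1 TSS was nearer, at 86 bp. A second pooled summit lay 5 bp from the Rpn5 TSS with a signal of 62.4, at rank 9826.

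Rpn3, another lid subunit, came next. Its peak (2L, 19051629 to 19052024) had pooled rank 868 and a signal of 249.8. The ranks were 1084 in replicate 2, 896 in replicate 3 and 851 in replicate 4, and the signals 74.2, 94.0 and 77.8. All 3 replicates thus placed it among their strongest sites. The summit at 19051827 lay 37 bp downstream of the TSS in the 5′ untranslated region of Rpn3 itself. The opposite-strand gene l(2)37Bb starts 215 bp from it.

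Prosbeta1, the core subunit with caspase-like activity, was the only reproducible site in the 20S core. Its peak (2R, 16014662 to 16015057) had pooled rank 2572 and a signal of 133. Replicates 2, 3 and 4 ranked it 2730, 2954 and 2711, with signals of 41.6, 51.9 and 41.4. The 3 ranks were alike and all within the strongest 3233. The summit at 16014860 was between genes, 73 bp upstream of the Prosbeta1 TSS and 48 bp from the start of Rrp42, an RNA exosome subunit gene on the opposite strand.

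Rpn9, a lid subunit, stood at the edge of the list. Its peak (3R, 23733055 to 23733450) ranked 3226 of 3233 with a signal of 115.5, where the weakest reproducible peak had 115.4. Its −log10 q-value was 3.33, against 3.81 at the 3 other sites. The replicate ranks were 3348, 5589 and 20052 in replicates 2, 3 and 4, with signals of 36.9, 37.3 and 17.5. None of these summits was among the strongest 3233 of its replicate. The reproducible summit at 23733253 lay in the 5′ untranslated region, 209 bp downstream of the Rpn9 TSS. Summits of replicates 2 and 3 lay 11 and 67 bp from it. The only promoter summit of replicate 4 was 133 bp from it and 76 bp downstream of the TSS. Rank 20052 may thus not describe the same site. A much weaker pooled summit, of signal 42.6 at rank 21576, lay 4 bp from the Rpn9 TSS.

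Just outside the reproducible list came Rpt5, a ring ATPase, at pooled rank 3970 with a signal of 101.7. Replicate 3 ranked its promoter summit 1533 with a signal of 71.4, replicate 4 ranked it 4724 with 31.8, and replicate 2 had none. The summit was 18 bp upstream of the Rpt5 TSS and 24 bp from that of RanBP3 on the opposite strand. Rpn6, a lid subunit that bridges to the core, followed at rank 4844 with a signal of 90.3. Its replicate ranks were 2737, 5838 and 6391, so that it was among the strongest peaks of replicate 2 alone. It shared the site with ave, 159 bp away. Rpn2, the large scaffold of the base, had rank 5111 and a signal of 87.7. Replicates 3 and 4 ranked it 6886 and 4935, and replicate 2 had no summit there. Slbp, the gene for a histone mRNA binding protein, starts 202 bp from that summit.

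The next 7 by pooled signal lay between 77.1 and 65.5. Rpn13, a ubiquitin receptor, had rank 6379, with the protease gene CtsL1 nearer at 100 bp. Rpn10, also a ubiquitin receptor, had rank 6425 with no other gene start in the window. Rpt2, an ATPase, had rank 6502 and shared its site with CG13599 at 112 bp. Prosalpha4, a core ring subunit, had rank 7040, with the summit inside its own coding sequence 411 bp from the TSS. Rpn11, the deubiquitinase, had rank 8119 and no other gene start in the window. Rpt3 at rank 8158 and Rpt4 at rank 8876, both ATPases, had summits nearer to CG11122 (92 bp) and mldr (244 bp). In the pooled list the −log10 q-values of these 7 ran from 1.17 to 0.72, so none reached q of 0.05. In replicate 3, however, Rpn13, Rpn11, Prosalpha4, Rpn10 and Rpt3 had a promoter summit within that limit. Their −log10 q-values there were 3.43, 2.95, 2.88, 2.06 and 1.498. That of Rpn13 lay 445 bp upstream of the TSS, outside the pooled peak. Rpt2 and Rpt4 did not reach the limit in replicate 3, with 1.047 and 1.211. Of these 7 only Rpt2 reached it in replicate 4, with 1.302, and none in replicate 2.

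Prosalpha6, a core ring subunit, showed how far single replicates could differ. Its strongest promoter summit ranked 2161 in replicate 2 with a signal of 48.4, 4215 in replicate 3 with 43.1 and 16675 in replicate 4 with 19.1. These 3 summits lay 219 bp upstream, 195 bp downstream and 318 bp upstream of the TSS. The pooled summit, at rank 9109 with a signal of 64.7, was 65 bp upstream and 70 bp from the start of Npc1a, a sterol transport gene on the opposite strand. It was one of 6 members (12.5%) among the strongest 3233 peaks of at least 1 replicate, against 21.0% of all protein-coding genes. The others were Prosbeta1, Rpn3 and Rpn5, present in all 3 replicates (6.25% of members, against 8.28% of all protein-coding genes), Rpn6 in replicate 2 and Rpt5 in replicate 3.

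**Figure D2:**
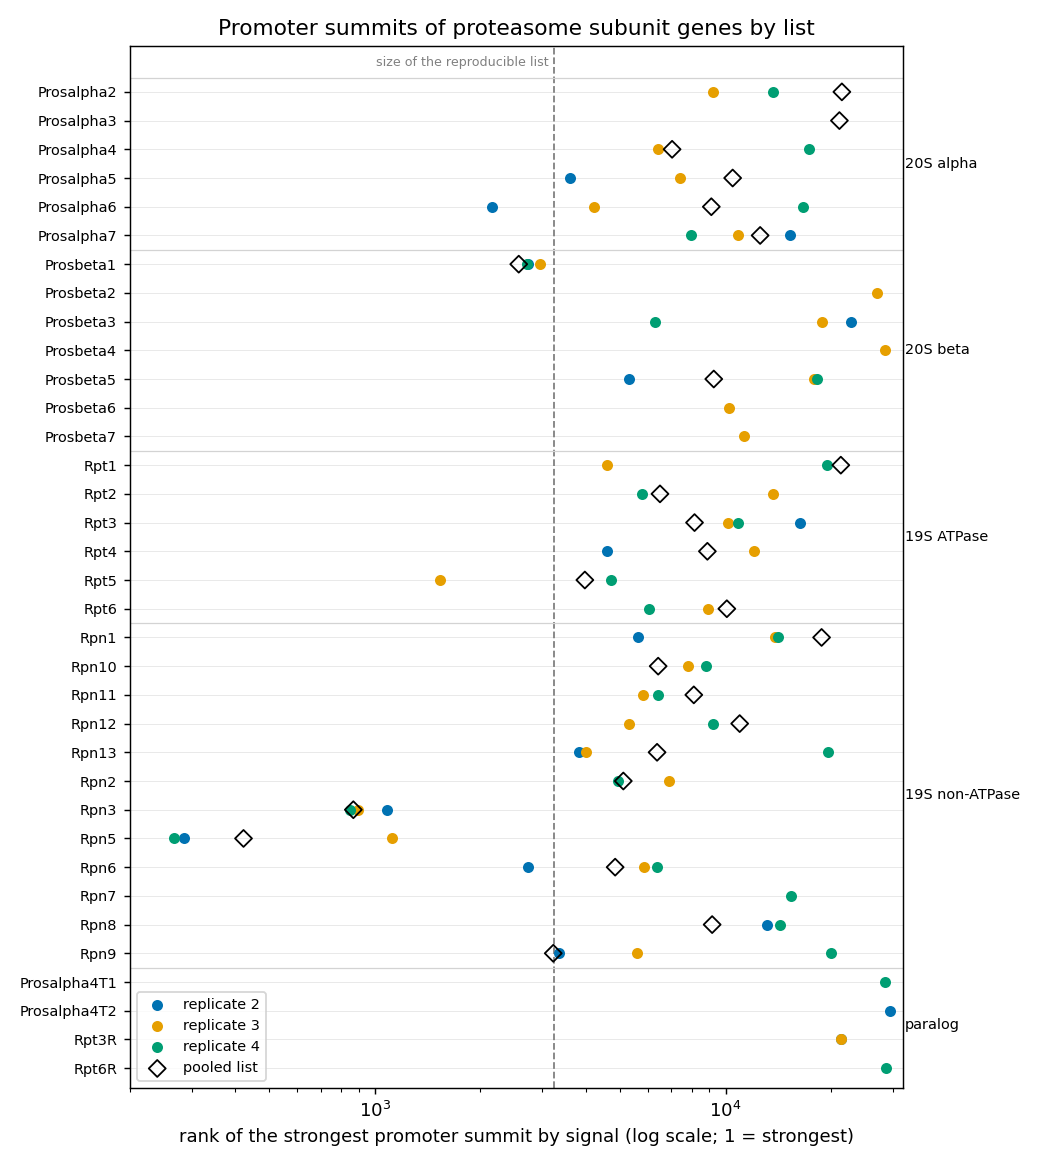
Rank by signal (horizontal axis, log scale, 1 is strongest) of the strongest summit within 500 bp of a TSS for each proteasome gene that had one in the pooled list (diamonds) or in a replicate (dots), ordered by role. The dashed line marks rank 3233. Rpn5, Rpn3 and Prosbeta1 lie left of the line in every list, most others lie right of it, and Prosalpha1 and 12 paralogs with no summit are not drawn.

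Of the remaining standard subunits, Prosalpha5 and Prosalpha7 of the alpha ring had pooled ranks of 10479 and 12551. Prosalpha2 had pooled rank 21467, and Prosalpha3 rank 21123 with no promoter summit in any replicate. Prosbeta5, the chymotrypsin-like catalytic subunit, ranked 9256, Rpt6 10086 and Rpt1 21319. Rpn8, the partner of Rpn11, ranked 9158, Rpn12 10974 and the scaffold Rpn1 18790. In the pooled list all 10 had q-values above 0.05. In replicate 3, however, Rpt1, Rpn12, Prosalpha5, Rpt6, Prosalpha2 and Prosalpha7 had a promoter summit within that limit, with −log10 q-values of 3.49, 2.98, 2.21, 1.76, 1.67 and 1.39. That of Rpt1, at rank 4592, was 3 bp upstream of its TSS, and that of Prosalpha7 was 75 bp upstream. Both lay outside the strongest pooled promoter peak of the gene.

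The 7 standard subunits without a pooled promoter summit were Prosalpha1, Rpn7 and Prosbeta2, 3, 4, 6 and 7. Prosbeta2, the trypsin-like catalytic subunit, had an entry in replicate 3 at rank 26985. Prosbeta4, Prosbeta6 and Prosbeta7 also had an entry in replicate 3 alone, at ranks 28567, 10199 and 11259. Rpn7 had one in replicate 4 alone, at rank 15335. Of these entries only those of Prosbeta6 and Prosbeta7 had a q-value of at most 0.05, with −log10 q-values of 1.492 and 1.317. Prosbeta3 had an entry in every replicate, at ranks 22822, 18820 and 6276, but these summits lay 452 bp downstream, 490 bp upstream and 470 bp downstream of its TSS. The summits of replicates 2 and 4 thus fell close together, and that of replicate 3 on the other side of the TSS. The nearest pooled summit was 505 bp from the TSS, just outside the window.

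Prosalpha1 was the only standard subunit with no promoter summit in any list. Its promoter window cannot be read in the same way as the others. All 971 of its 31-base words occur more than once on the 6 arms, and the same holds for its paralog Prosalpha1R. Both lie on 2R, with starts of the gene records at 7827303 and 7830413. Among the 46 other members, the share of repeated words was above 5% only for Rpn3 (9.37%) and Prosalpha3 (7.11%). No source used here says how the authors treated reads that match several places.

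The paralogs had few and weak entries. Rpt3R, related to the ATPase Rpt3, ranked 21410 in replicate 2 and 21278 in replicate 3. Prosalpha4T2 ranked 29512 in replicate 2, and Prosalpha4T1 and Rpt6R ranked 28414 and 28676 in replicate 4. None had a q-value of at most 0.05. The other 12 had no promoter entry in any list. The median distance from a paralog to the nearest pooled summit was 6725 bp, against 82 bp for standard subunits and 446 bp for all protein-coding genes. To the nearest reproducible summit the medians were 33100 bp for paralogs, 7146 bp for standard subunits and 10839 bp for all protein-coding genes. Paralogs thus lay farther from CG8089 summits than the standard subunits at both levels of strength.

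Across replicates, 12 of 48 members (25%) had a promoter entry in all 3 whole lists, against 28.0% of all protein-coding genes. All 12 were standard subunits, namely Prosalpha6, Prosalpha7, Prosbeta1, Prosbeta3, Prosbeta5, Rpt3, Rpn1, Rpn3, Rpn5, Rpn6, Rpn9 and Rpn13. Another count asked that all 3 replicates had a summit inside the strongest pooled promoter peak, whether or not within 500 bp of a TSS. This held for 8 of the 25 members with a pooled summit (32.0%), against 43.6% of the 7206 protein-coding genes with one. The 8 were the 4 reproducible sites with Prosbeta5, Rpt3, Rpn6 and Rpn8. Rpn8 was not among the 12, because replicate 3 had no summit within 500 bp of its start sites.

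**Figure D3:**
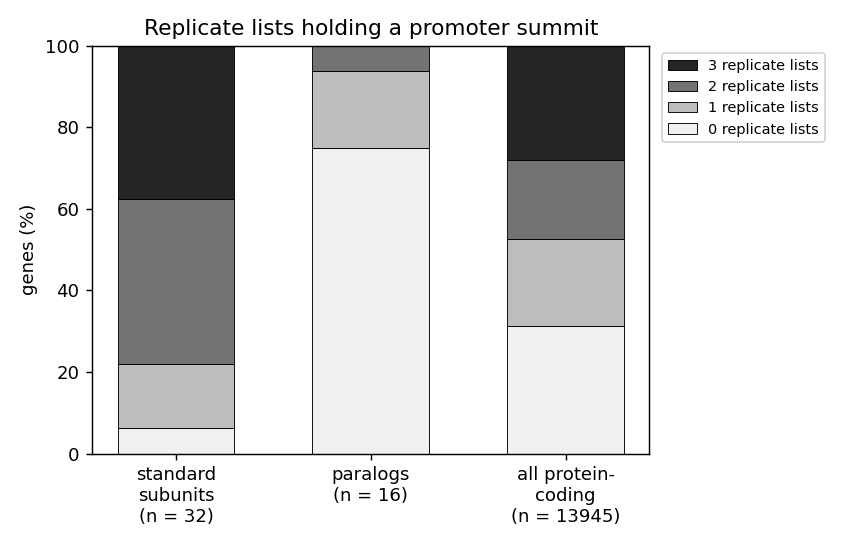
Percentage of genes (vertical axis) with a promoter summit in 0, 1, 2 or 3 of the whole replicate lists, for standard subunits (n = 32), paralogs (n = 16) and all protein-coding genes (n = 13945). Among standard subunits 12 are in all 3 lists and 2 in none, while 12 of the 16 paralogs are in none.

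The pooled summits of members lay close to their start sites. Over the 25 members the median distance was 91 bp, against 145 bp over the 7206 protein-coding genes with a pooled promoter summit, and 14 of 25 (56.0%) lay within 100 bp, against 38.7%. The summit was upstream of the TSS in 18 members and downstream in 7. Sides were not counted over all protein-coding genes, so this split cannot be called a trait of the members. Among the 4 reproducible sites those of Rpn5 and Prosbeta1 were upstream and those of Rpn3 and Rpn9 downstream.

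**Figure D4:**
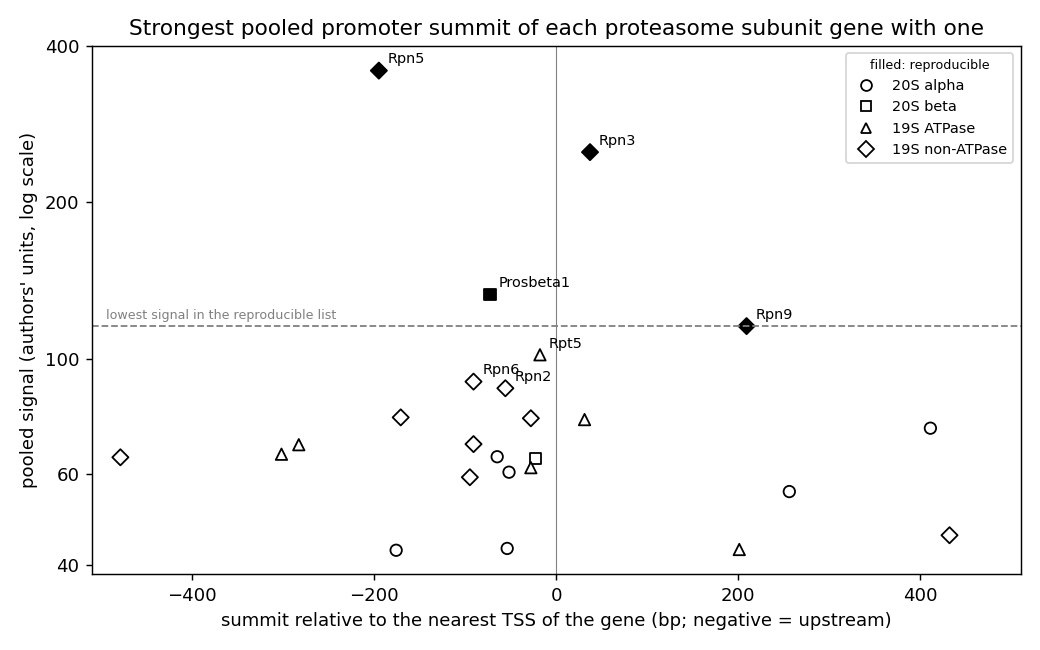
Pooled signal (vertical axis, the authors' units, log scale) against the distance of the summit from the nearest TSS of the gene (horizontal axis, bp, negative is upstream) for the strongest pooled promoter summit of the 25 members that had one. Filled symbols are the 4 reproducible sites, the dashed line marks the lowest reproducible signal of 115.4, and Rpn9 sits on that line.

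Every reproducible proteasome site was a shared promoter. Each of the 4 peaks had exactly 1 other gene start within 500 bp of the summit, always on the opposite strand, and Rpn3 alone was the nearer gene. The proteasome genes often have such neighbours: 24 of 48 (50%) had an opposite-strand TSS within 500 bp of their own, against 27.8% of all protein-coding genes. The share was 65.6% of standard subunits and 18.8% of paralogs. The 4 reproducible members were among these 24 (16.7%), and none was among the 24 without such a neighbour. Over all protein-coding genes the reproducible share was 27.5% with a neighbour and 9.60% without. Which gene of a pair the summit belongs to cannot be told apart by position.

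Among the pooled sites, the gene with the nearest start was the neighbour at Rpt3, Rpt4, Rpn13 and Rpn8 as well. Of the standard subunits with an opposite-strand neighbour 76.2% had a pooled summit, and of those without one 81.8%. For pooled summits the standard subunits thus showed no higher share with a neighbour, whereas all protein-coding genes had 75.3% with one and 42.6% without.

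TATCGATA, bound in flies by the factor DREF, stood near a part of the members' pooled summits. Within 100 bp of the summit, on either strand, 8 of 25 members (32.0%) held it, against 394 of 8252 promoter peaks of the pooled list (4.77%). In this and the other word counts members enter with their strongest pooled summit only, whereas the background counts every promoter peak. The 8 were Prosbeta1 and Rpn3 among the reproducible sites, and Prosalpha3, Prosalpha5, Prosalpha6, Rpt3, Rpt5 and Rpn13 among the others. The shorter word CGATA, which TATCGATA contains on both strands, was found at 18 of 25 (72%), against 32.0% of pooled promoter peaks. In stretches of the same length, TATCGATA was in 7.45% of the 1597 reproducible promoter peaks and in 4.13% of the 6655 weaker ones. At members it was in 2 of 4 and 6 of 21. These shares describe words in the sequence and not binding by any factor.

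The other words were less frequent or close to the background. GGTCACACT was at Rpn9 alone (4.00%, against 3.10% of pooled promoter peaks), and ACACTG at 5 of 25 (20%, against 15.4%). TATAAA was at 6 (24.0%, against 19.9%), GAGAG at 4 (16.0%, against 26.5%) and CACGTG at none (against 2.90%). TGACNNNGC, a word of the kind that Cnc and Maf proteins recognise, was at Rpt6 alone (4.00%, against 7.08%). The median GC content was 35.1% at the 4 reproducible member sites and 40.3% at the 21 others, against 37.8% and 45.8% in the reproducible and weaker promoter peaks of all genes.

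Genes that work with the proteasome were examined as a list of ubiquitin, assembly and regulatory genes, chosen with earlier results of these data known. RpS27A and RpL40 of this list also count among the ribosomal protein genes below. Of 25 names 24 matched the annotation, and 9 of the 24 (37.5%) had a reproducible promoter summit, against the 14.6% of all protein-coding genes given above. In the stronger 1616 reproducible peaks 2 of 24 (8.33%) had one, against 8.05% of all protein-coding genes, so the higher share lay in the weaker reproducible peaks. In the pooled list 20 of 24 (83.3%) had one, against 51.7% of all protein-coding genes. Among the strongest 3233 peaks of each replicate the mean share was 30.6% ± 10.5, against 14.2% ± 0.618 (SD, n = 3 each). There were 10, 5 and 7 genes in replicates 2, 3 and 4. The count was lowest in replicate 3.

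Hrd3, part of a ubiquitin ligase for misfolded proteins of the endoplasmic reticulum, had the strongest of these peaks, at pooled rank 186 with a signal of 494. Replicates 2, 3 and 4 ranked it 148, 310 and 201, so it was strong in each. PTPMT1 on the opposite strand was nearer to this summit, at 101 bp against 221 bp. RpS27A, which encodes ubiquitin fused to a ribosomal protein, ranked 492 with a signal of 332, and 461, 836 and 505 in the replicates. Its summit was 53 bp from its own start and as far from that of Ip259 on the same strand. The polyubiquitin gene Ubi-p63E ranked 2126 with a signal of 149, and Rad23, which carries ubiquitinated proteins to the proteasome, 1882 with 160.

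The other 5 were cnc, Keap1, Pngl, PI31 and Pomp. The transcription factor gene cnc, whose product is known to raise proteasome gene expression in flies, ranked 2177 with a signal of 147, and Keap1, its inhibitor, ranked 2476 with 136. Keap1 shares its peak with kuk on the opposite strand. Pngl, related to enzymes that remove sugar chains, ranked 2149 with a signal of 148. PI31, a proteasome binding protein, ranked 2733 with a signal of 128, and Pomp, a chaperone of core assembly in other species, 3224 with 115.6. Pomp thus stood beside Rpn9 at the end of the reproducible list. Sem1, a small lid subunit whose symbol kept it out of the members, had no pooled promoter summit and 1 entry, at rank 19381 in replicate 3.

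Other large complexes gave a scale for the member values. Among 92 genes with RpL or RpS symbols, which encode cytoplasmic ribosomal proteins and their duplicates, 68 (73.9%) had a reproducible promoter summit. Among 33 Vha genes of the vacuolar proton pump 11 (33.3%) had one, and among 25 MED genes of the Mediator complex 8 (32.0%). In the pooled list the shares were 92.4%, 51.5% and 76.0%. The median pooled rank of a promoter summit was 8158 for the 25 proteasome genes, 922 for ribosomal protein genes, 2423 for Vha genes, 4908 for MED genes and 6996 for all protein-coding genes. In the strongest peaks of single replicates the ribosomal protein genes averaged 70.7% ± 2.88, Vha genes 27.3% ± 8.02 and MED genes 26.7% ± 6.11 (SD, n = 3 each). For the standard proteasome subunits the highest replicate, 15.6%, was below the lowest of any of these groups, 18.2%.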

How the data were processed

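ChIP-seq was done in 3 biological replicates of 1 group. Per the deposited file descriptions, the authors called peaks on build dm6 in each replicate and in the pooled replicates, in lists that hold peaks together with background, and the reproducible list is the pooled list after their irreproducible discovery rate step. No source used here gives the caller, its version or the thresholds. The deposited signal per peak ranked peaks within a list, and the deposited −log10 q-value marked entries with q of at most 0.05. Read depth is unknown, so no precision was derived from it. Replicates shared between 134 and 209 identical summits of 30000. Control libraries were not analysed here, and lists on dm3 were not used.

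Positions were read against the Ensembl BDGP6 annotation and the RefSeq Release 6 genome, whose arm lengths contain all pooled peaks. A promoter summit lay within 500 bp of any annotated TSS of a protein-coding gene. Members, gene lists, words and alternatives were chosen with earlier results of these data known. No test was run, since there is 1 group. Shares stand beside those of all protein-coding genes. Named were all reproducible members, the 10 other members of highest pooled signal, members among a replicate's 3233 strongest peaks, reproducible genes of the pathway list, and genes sharing a named peak; further members are named to account for all. Searches were checked on simulated data, where 100 of 100 planted summits were recovered over 13945 genes. Python 3.11.15, numpy 2.4.6, pandas 2.3.3 and matplotlib 3.10.9 were used. A neighbouring gene and the sequence at 1 site are not reported here.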

Additional observations from a re-analysis of the deposited data

How the results depend on the processing

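The count of 4 members with a reproducible promoter summit was also 4 with windows of 250 and 1000 bp and with only the outermost 5′ end of each gene, and 3 when the peak had to cover the TSS. It was 2 (Rpn3 and Rpn5, against 8.05% of all protein-coding genes) in the stronger 1616 peaks, and 1 (Rpn3, against 10.9%) when a summit counted only for the nearest TSS. Without replicates 2, 3 or 4 it was 3, losing Rpn9 each time, in lists of 2054, 2119 and 1892 peaks. The share of all protein-coding genes in these lists was 9.08%, 10.4% and 8.83%. The authors' irreproducible discovery rate step was not rerun for these smaller lists, so they do not test the reproducible list itself. Rpn9 was outside the strongest 3233 peaks of every replicate. The pooled count of 25 ran from 21 to 32 over other windows, start sites and overlap rules and in the stronger 15000 entries (against 35.5% to 62.8%), and was 7 (against 23.3%) with only entries of q at most 0.05, a limit chosen after seeing the data. The mean share in the strongest peaks of single replicates, 8.33%, was 4.86% with 1616 peaks (against 7.92%), 8.33% with either other window, and 7.29% to 9.38% without each replicate. The count in all 3 whole lists, 12, was 7 at 250 bp (against 19.1%) and 17 at 1000 bp. The pathway count of 9 was 2 (Hrd3 and RpS27A, 8.33% against 8.05%) in the stronger 1616 peaks. The causes were not tested.

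No paired analysis was possible because there is 1 group. The position of a shared promoter, the unknown depth and the undescribed handling of repeated sequence limit what can be said of a single gene.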
